A study of Gallus gallus with 403 samples.

Results

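The circadian clock genes described here are 10 genes of the chicken, Gallus gallus: CLOCK, ARNTL (also called BMAL1), NPAS2, PER2, PER3, CRY1, CRY2, NR1D2, BHLHE40 and NFIL3. The rule lists them by name, as genes whose symbol stands in the annotation of the Affymetrix Chicken Genome array, and uses no measured value. All 10 were measured, among 13009 genes, by 34 probe sets. Where a gene had several probe sets, the one with the largest average signal across the arrays stands for it. All values are deposited log2 intensities, so a difference of 1 is a 2-fold change, and levels of different genes were not set against each other.

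The arrays form 101 groups of 1 tissue and 1 age, without a treatment or a mutant: 94 groups hold 4 arrays, 5 hold 3 and 2 hold 6. The tissues are retina, pineal gland, brain, cerebral cortex, abdominal fat, liver, lung, spleen, duodenum, jejunum, ileum, whole intestine, cecal epithelia, pectoralis and gastrocnemius muscle, the growth plate of the tibiotarsus, ovary, ovarian cortex, oocytes and testes. Ages are labelled as days 0, 1, 3, 7, 8, 9, 10, 14, 21, 28, 35, 42, 49 and 56, with day 56 in liver alone. Each tissue has only some of these days. Gonads and oocytes carry other ages: week 16 for ovarian cortex, week 17 for testes, week 21 for oocytes, and week 17 and year 2 for ovary. Arrays are also labelled male or female. Ileum, cecal epithelia and cerebral cortex have a single age. Strain, time of day and lighting are not given in the labels. An age step may thus also be a step in the hour of sampling, and the 2 cannot be told apart. The labels number the replicates without saying that they are separate birds, so p-values measure only the spread between arrays.

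The vertebrate clock is a feedback loop of transcription. CLOCK, or its relative NPAS2, pairs with ARNTL, and the pair binds E-boxes and switches on the PER and CRY genes, whose proteins return to the nucleus and inhibit the pair. NR1D2 (REV-ERB beta) is a nuclear receptor that represses ARNTL, BHLHE40 (DEC1) competes for E-boxes, and NFIL3 (E4BP4) represses genes with D-boxes. In birds the pineal gland and the retina each hold their own light-sensitive clock and make melatonin, and chicken pineal cells keep a rhythm in culture.

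Most tissues carried their defining markers, and 14 groups stood apart, a call made after the values were seen. In 4 brain groups (day 21, day 14, day 1 and the second set of day 7) the neuronal gene GRIN1 lay between 7.28 and 7.62, against 11.14 to 12.31 in the 8 others. MBP, the myelin protein, lay between 5.39 and 6.10 there, against 10.26 to 12.88. The neuronal genes NEFM (9.57 to 10.25, against 10.72 to 12.78) and SNAP25 (9.23 to 10.41, against 11.67 to 12.70) were lower too, but above their medians in other tissues (6.36 and 5.75). In liver at day 56 albumin (ALB) was at 8.03, against 14.61 to 15.00 in the 6 other liver groups. In abdominal fat at days 1, 7 and 10 the adipocyte genes PLIN1 and ADIPOQ were at most 7.32 and 6.34, against at least 9.32 and 10.76 in the 6 later groups. In 2 pectoralis groups of the first run, day 21 and one whose labels give 2 ages, MYL1 was at 7.73 and 8.60, against at least 12.87 in 4 others. TNNC2 (10.05 and 10.42, against at least 13.31) and TNNI2 (9.59 and 10.49, against at least 13.62) were lower there too, while ACTA1 (13.37 and 13.38, against at least 13.72) was near its level in the others. The other 4 are muscle groups of the second run of sample numbers whose arrays match 1 to 1, with correlations of their deviations from 0.688 to 0.821. Results that rest on any of these are named as such. Sample numbers form 2 runs, of 251 and 152 arrays, and age steps were taken within a run. The median SD between arrays of a group was narrow in 45 groups (0.0896 to 0.202) and wide in 56 (0.372 to 0.537). Small differences could thus be seen only in the narrow ones. The first run holds both kinds, so some comparisons within it set a narrow group against a wide one. Among these are the liver steps from day 0 to 1 and day 9 to 49 and the duodenal step from day 7 to 14. The pairs of brain with pineal gland and cerebral cortex at day 7, and with retina at day 9, are others.

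Each gene's level was first compared across tissues, over the 87 groups that did not stand apart. The retina had the highest mean of PER3 (9.04 ± 1.41, SD over 7 groups), CRY2 (10.31 ± 0.28) and NR1D2 (11.39 ± 0.30). The lowest tissue means of these genes were 6.34 for PER3 in oocytes, 7.32 ± 0.34 for CRY2 in whole intestine (7 groups) and 7.86 for NR1D2 in ovarian cortex. For CRY2 brain came next (9.88 ± 0.12, 8 groups). For PER3 the wide SD of retina lies between its ages, described below. The lowest PER3 groups there, days 1 and 7 (7.425 and 7.4875), are those of the second run, so age and run are mixed in this SD. In bulk tissue, fewer cells of a type and less RNA per cell cannot be told apart.

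**Figure D1:**
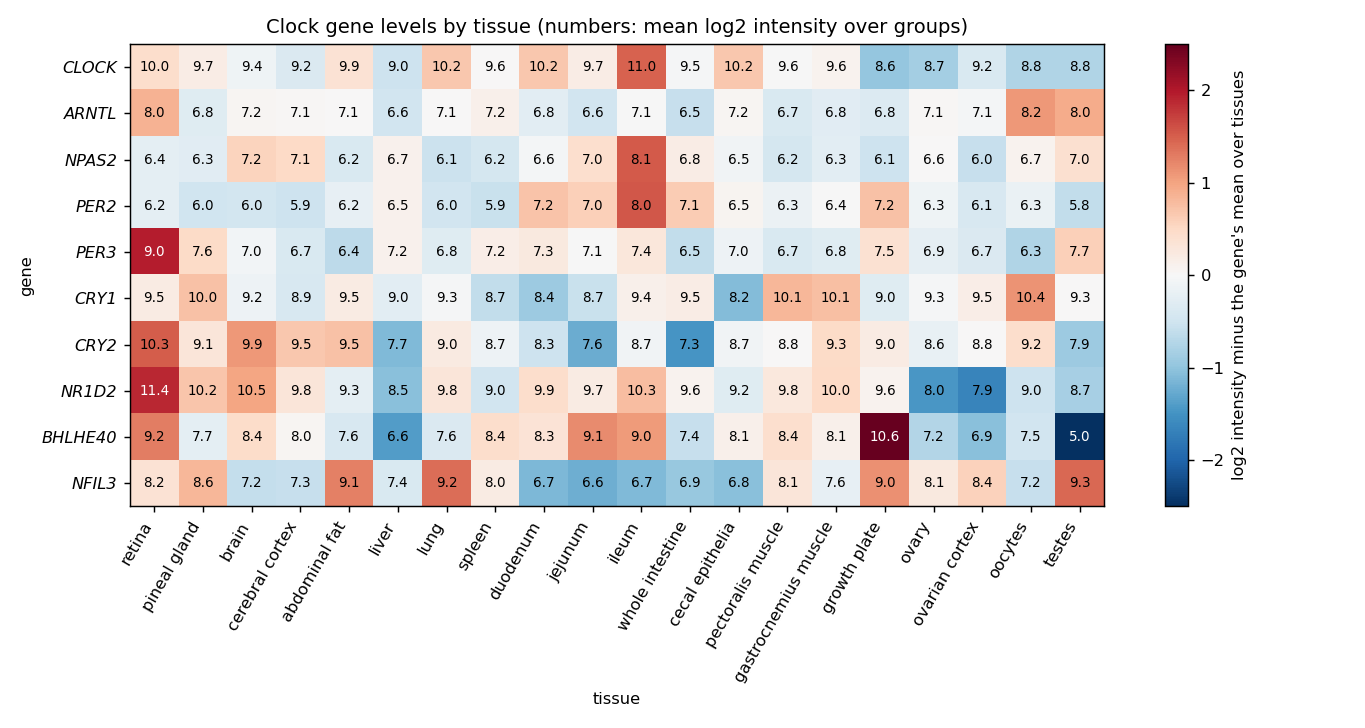
Mean log2 intensity of each clock gene in each tissue, over groups that do not stand apart; color gives the difference from that gene's own mean over tissues, and rows are not compared with each other. The retina column is red for PER3 (9.0), CRY2 (10.3) and NR1D2 (11.4), and the growth plate holds the highest BHLHE40 (10.6). Each value is that of the single probe set used for the gene.

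Among the activators, CLOCK spanned 8.37 in ovary at week 17 to 11.03 in ileum at day 28, and the growth plate held the lowest tissue mean (8.59 ± 0.10, 5 groups). ARNTL ran from 5.50 in jejunum at day 7 to 8.61 in retina at day 21, and oocytes (8.20), testes (8.04) and retina (7.99 ± 0.42) formed the top of the order without separating from each other. NPAS2 was highest in ileum (8.14) and then in brain (7.16 ± 0.17) and cerebral cortex (7.11), which lay within 1 SD of each other. Ileum is a single group of day 28, an age at which NPAS2 was at 7.645 in jejunum. The highest jejunal group mean of CLOCK was 10.955. CLOCK itself was at 9.45 ± 0.17 in brain, below the means of 12 other tissues.

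Of the inhibitors, PER2 was read by a dim probe set, with a mean of 6.43 over all arrays where array medians lay between 5.99 and 6.47. Its group means went from 5.67 in lung at day 1 to 8.12 in growth plate at day 21, and 4 gut tissues and growth plate held its higher values (ileum 8.00, growth plate 7.17 ± 0.59, duodenum 7.17 ± 0.35, whole intestine 7.09 ± 0.39, jejunum 7.04 ± 0.61), which overlap, whereas cecal epithelia were at 6.51. CRY1 spanned 7.35 in duodenum at day 14 to 10.65 in retina at day 7. Its tissue order was led by oocytes (10.44), pectoralis (10.14 ± 0.29), gastrocnemius (10.07 ± 0.47) and pineal gland (10.03 ± 0.64), which overlap. CRY2 had nearly its lowest values in jejunum (7.55 ± 0.98), just above whole intestine.

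BHLHE40 had the widest span of the 10 genes, from 5.05 ± 0.11 in testes at week 17 (SD, n = 3) to 11.16 ± 0.997 in growth plate at day 28 (SD, n = 4). Growth plate (10.64 ± 0.55) was above retina (9.24 ± 0.75) and jejunum (9.14 ± 0.90), and liver (6.56 ± 1.06) was above testes alone. NFIL3 was high in testes (9.26), lung (9.21 ± 0.32), abdominal fat (9.09 ± 0.72) and growth plate (8.96 ± 0.89), which overlap. All 5 intestinal tissues were at the bottom, between 6.61 ± 0.53 in jejunum and 6.87 ± 0.23 in whole intestine.

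Day 7 was the age with the most organs, and at this age 10 organ classes could each be tested against the mean of the other 9 (52 arrays). The day 7 arrays mix both runs: retina, abdominal fat, spleen, growth plate and jejunum are of the second and the others of the first. A gene was called at an adjusted p under 0.05 over all genes tested and a log2 difference of at least 1. Clock genes were called in 21 of 100 tests (21%), 11 higher and 10 lower, where all genes were called in 20.1% of tests, 10.1% higher and 9.96% lower. The share is thus near that of all genes. By class the share of all genes was 21.7% in abdominal fat, 21.3% in brain, 17.9% in intestine, 17.7% in liver, 18.9% in lung, 17.5% in pineal gland, 14.2% in muscle, 26.1% in retina, 20.8% in spleen and 24.8% in growth plate. The median absolute log2 difference was 0.48 over the clock genes and 0.47 over all genes. Without abdominal fat, whose day 7 group stands apart, 16 of 90 were called, against 20.5% of all genes. With the first run alone, at the ages nearest to day 7, 14 of 100 clock gene tests were called, against 18.9% over all genes, and 12 of the 21 calls held. With a gene's probe sets averaged 6 of 100 were called, against 13.5%. ARNTL, PER2 and PER3 were called in no class. Some of their differences were just under the required size. These were 0.96 for ARNTL in retina (limma adjusted p = 5.63e-04) and 0.94 for PER2 in intestine (2.78e-08). PER3 differed by −0.99 in abdominal fat (0.00412) and by 0.90 in pineal gland (0.0115).

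BHLHE40 gave the largest of these differences, on the 1 probe set used for it. In called age steps, 0 of 45 differences on its other probe sets had the same sign and 50% of the size. These BHLHE40 values thus describe that probe set. In growth plate at day 7 BHLHE40 read 11.85, 9.55, 9.50 and 11.84, a mean of 10.69, against a mean of 8.01 over the 9 other classes. The difference was 2.68 ± 0.25 (SE, limma adjusted p = 1.69e-14), and it was 2.89 without fat. The fit pools the spread of 13 groups, so this SE and p do not measure the spread of the growth plate arrays alone. Their low pair (9.50 and 9.55) lay far from their high pair (11.84 and 11.85). BHLHE40 was lower in liver (7.03 against 8.41), pineal gland (7.08 against 8.41), lung (7.09 against 8.41) and muscle (7.29 against 8.39). The call in muscle ended without fat (log2 difference −0.93), and with the first run alone these 4 differences were −0.87, −0.81, −0.81 and −0.58, under the required size.

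CRY2 and NR1D2 were high in retina and brain, and CRY1 in retina and pineal gland. CRY1 was 1.56 ± 0.25 above the other classes in retina (10.65 against 9.08) and 1.48 ± 0.25 in pineal gland (10.58 against 9.09). In brain CRY1 averaged 8.50, against 9.32 in the other classes, a difference of −0.82 (limma adjusted p = 0.00632) under the required size. CRY2 was 1.44 ± 0.25 higher in retina and 1.04 ± 0.25 in brain, and in intestine the difference was −1.47 ± 0.16 (7.48 against 8.94). NR1D2 was 1.71 ± 0.34 higher in retina and 1.55 ± 0.34 in brain. The brain calls hold for the first set of day 7 arrays: with the second set, which stands apart, NR1D2 was −3.12, NPAS2 −0.80 and CRY2 −0.034. Without fat, NPAS2 and CRY2 also missed the required size in brain (0.95 and 0.996). In abdominal fat itself NPAS2 and NR1D2 were lower (−1.23 and −1.51) and BHLHE40 higher (1.63), with adipocyte markers low as above. CLOCK and NFIL3 were highest in lung (10.59 against 9.42, and 9.41 against 7.81), and NFIL3 was lower in intestine (6.52 against 8.13). In growth plate CLOCK and CRY1 were lower (8.53 against 9.65, and 8.33 against 9.34). Without replicate 1 this CLOCK difference was −0.78, and without replicate 3 that of CRY1 was −0.69. CRY2 in brain was 0.92 without replicate 3 and 0.91 without replicate 4, and NPAS2 in brain 0.98 without replicate 4. BHLHE40 in muscle was −0.97 without replicate 1 and −0.90 without replicate 4. All of these were under the required size. With the first run alone the calls of NPAS2 in brain (0.58), CLOCK in lung (0.97), CRY1 in growth plate (−0.68) and NPAS2 and BHLHE40 in fat (−0.09 and 0.78) also missed the required size.

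Ages were compared next, as steps from an age to the next labelled age of the same tissue and run. Over 65 steps, clock genes were called in 65 of 634 tests (10.3%), 33 higher and 32 lower at the later age, against 7.27% of tests over all genes (3.05% higher and 4.23% lower). Without the groups that stand apart or match others, 37 of 524 were called (7.06%), 21 higher and 16 lower, against 4.39% (2.06% higher and 2.33% lower). The order of the shares depends on the probe sets: with a gene's probe sets averaged, 25 of 615 clock gene tests were called (4.07%), against 4.74% over all genes. BHLHE40 gave 9 of these 37 calls, PER3 5, ARNTL, CRY1 and NR1D2 4 each, CRY2 and NFIL3 3 each, CLOCK and NPAS2 2 each, and PER2 1. Of all 8 steps with the most clock genes called, 5 hold a group that stands apart.

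In 39 of the 65 steps under 1% of all genes passed, and in these 599 of 398159 tests were called (0.15%). Clock genes were called in 4 of these 39 steps, with 10 calls. All but 1 of the 10 fall in the pineal gland and the retina, in groups with a narrow spread. The pineal steps among them share the day 14 arrays. Other steps under the cut hold wide groups, where few genes could pass. Between days 21 and 1 in growth plate limma called 0 of 10671 genes, with 1990 at an unadjusted p under 0.05. The cut at 1% was made after the steps were fitted, so these counts are a description.

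**Figure D2:**
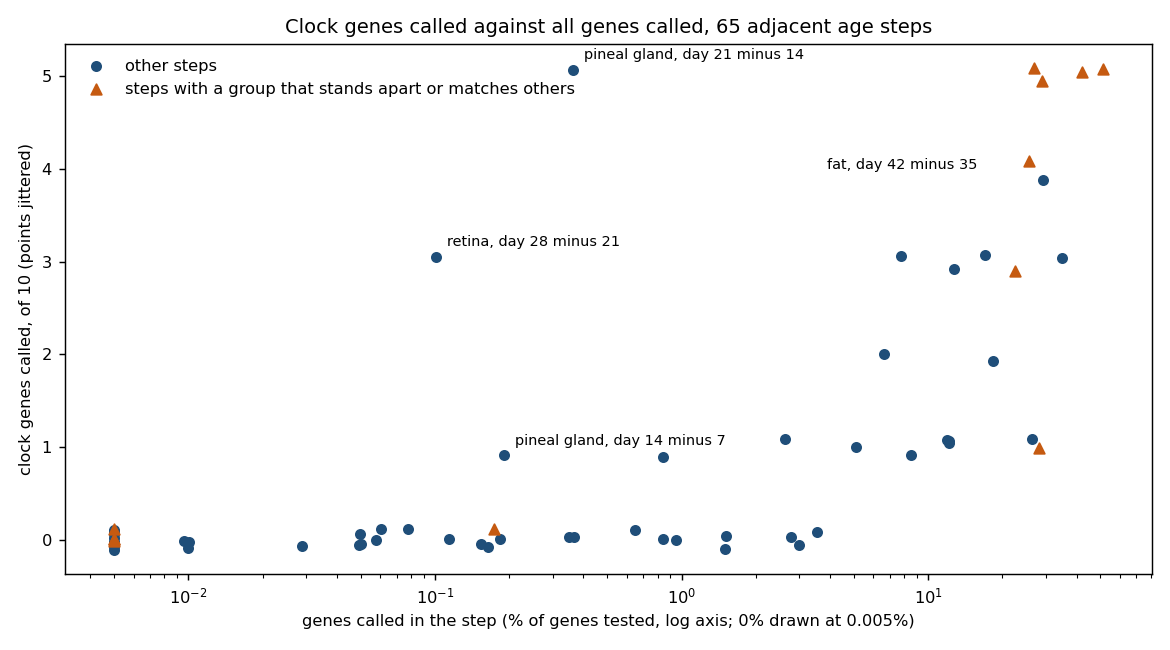
Each point is 1 of 65 age steps: the share of all genes called (horizontal, log axis) against the number of clock genes called of 10 (vertical, jittered); orange triangles are steps with a group that stands apart or matches others. The pineal step from day 14 to day 21 has 5 clock genes with 0.362% of genes called, and the retinal step from day 21 to day 28 has 3 with 0.101%.

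In the pineal gland 5 clock genes differed between day 21 and day 14, where 36 of 9942 genes were called (0.362%). PER3, NR1D2 and BHLHE40 were higher at day 21, and ARNTL and CRY1 were lower. PER3 read 9.07, 8.39, 8.48 and 9.39 at day 21, against 6.53, 6.54, 6.58 and 6.53 at day 14. Every day 21 array was above every day 14 array, and the difference was 2.29 ± 0.19 (SE, limma adjusted p = 2.83e-04). ARNTL read 6.14, 6.14, 6.20 and 6.09 at day 21, against 7.57, 7.37, 7.34 and 7.45 at day 14. The groups do not overlap, and the difference of −1.29 ± 0.07 had the lowest adjusted p of the members (1.47e-05). PER3 at day 14 and ARNTL at day 21 were dim, near the array medians, which limits the precision of these sizes.

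NR1D2, the repressor of ARNTL, read 11.30, 11.24, 11.18 and 11.29 at day 21, against 10.12, 9.83, 10.32 and 9.69 at day 14. CRY1 read 9.01, 9.34, 9.14 and 9.13 at day 21, against 10.63, 10.00, 10.47 and 10.24 at day 14. Neither gene's groups overlap, with differences of 1.26 ± 0.12 for NR1D2 (adjusted p = 6.12e-04) and −1.18 ± 0.13 for CRY1 (adjusted p = 0.00125), both from limma. BHLHE40 read 7.97, 7.97, 8.06 and 7.85 at day 21, against 7.29, 6.47, 7.48 and 6.41 at day 14. Its groups do not overlap either, and the difference was 1.05 ± 0.22 (limma adjusted p = 0.0334). This last call was lost without replicate 1, 2 or 4 (adjusted p 0.0716, 0.206 and 0.138, limma).

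The other 5 members did not pass. NFIL3 spread most, with 6.92, 9.00, 9.05 and 7.19 at day 21, against 10.10, 8.75, 10.20 and 8.60 at day 14. These groups overlap, and the difference of −1.37 ± 0.54 had a limma adjusted p of 0.259. CLOCK differed by −0.59 with a limma adjusted p of 0.012, a size under the required 1. PER2, CRY2 and NPAS2 differed by 0.21, 0.36 and −0.26.

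Of the 15 other clock and output genes measured, 2 were among the 36. BHLHE41 (DEC2), the close relative of BHLHE40, read 11.79, 11.60, 11.62 and 11.79 at day 21, against 9.65, 8.46, 9.51 and 8.36 at day 14, a difference of 2.71. ARNTL2, the relative of ARNTL, averaged 7.90 ± 0.23 at day 21 and 9.18 ± 0.12 at day 14 (SD, n = 4 each). Of the melatonin enzymes, TPH1 was at 13.89 and 14.29, ASMT at 12.74 and 12.68, and AANAT at 10.56 and 10.23 at days 21 and 14. DDC, which makes serotonin, was among the 36 genes and lower at day 21 (−1.09).

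The earlier pineal step ran the other way for PER3. PER3 averaged 6.54 ± 0.02 at day 14 and 7.66 ± 0.20 at day 7 (SD, n = 4 each), a difference of −1.11 ± 0.09 with 19 of 9943 genes called (0.191%, limma adjusted p = 1.80e-04). ARNTL was at 7.43 ± 0.10 at day 14 and 6.82 ± 0.14 at day 7, a difference of 0.61 (limma adjusted p = 0.00448) that is under the required size. ARNTL2 and BHLHE41 passed too, with differences of 1.05 and −1.29. PER3, ARNTL2 and BHLHE41 thus had an extreme at day 14, and since both steps share the day 14 arrays their opposite signs are not independent.

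The second run holds pineal glands of days 28 and 1, with a wide spread. There limma called 0 of 10271 genes (0%), with 626 at an unadjusted p under 0.05. The differences were 1.76 for NR1D2, 1.25 for BHLHE40, −1.06 for ARNTL and −0.96 for CRY1, with arrays that do not overlap for these 4. PER3 differed by 0.36, its day 28 arrays reading 7.45, 7.09, 9.20 and 6.44. The lowest limma adjusted p of a member in this step was 0.677.

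**Figure D3:**
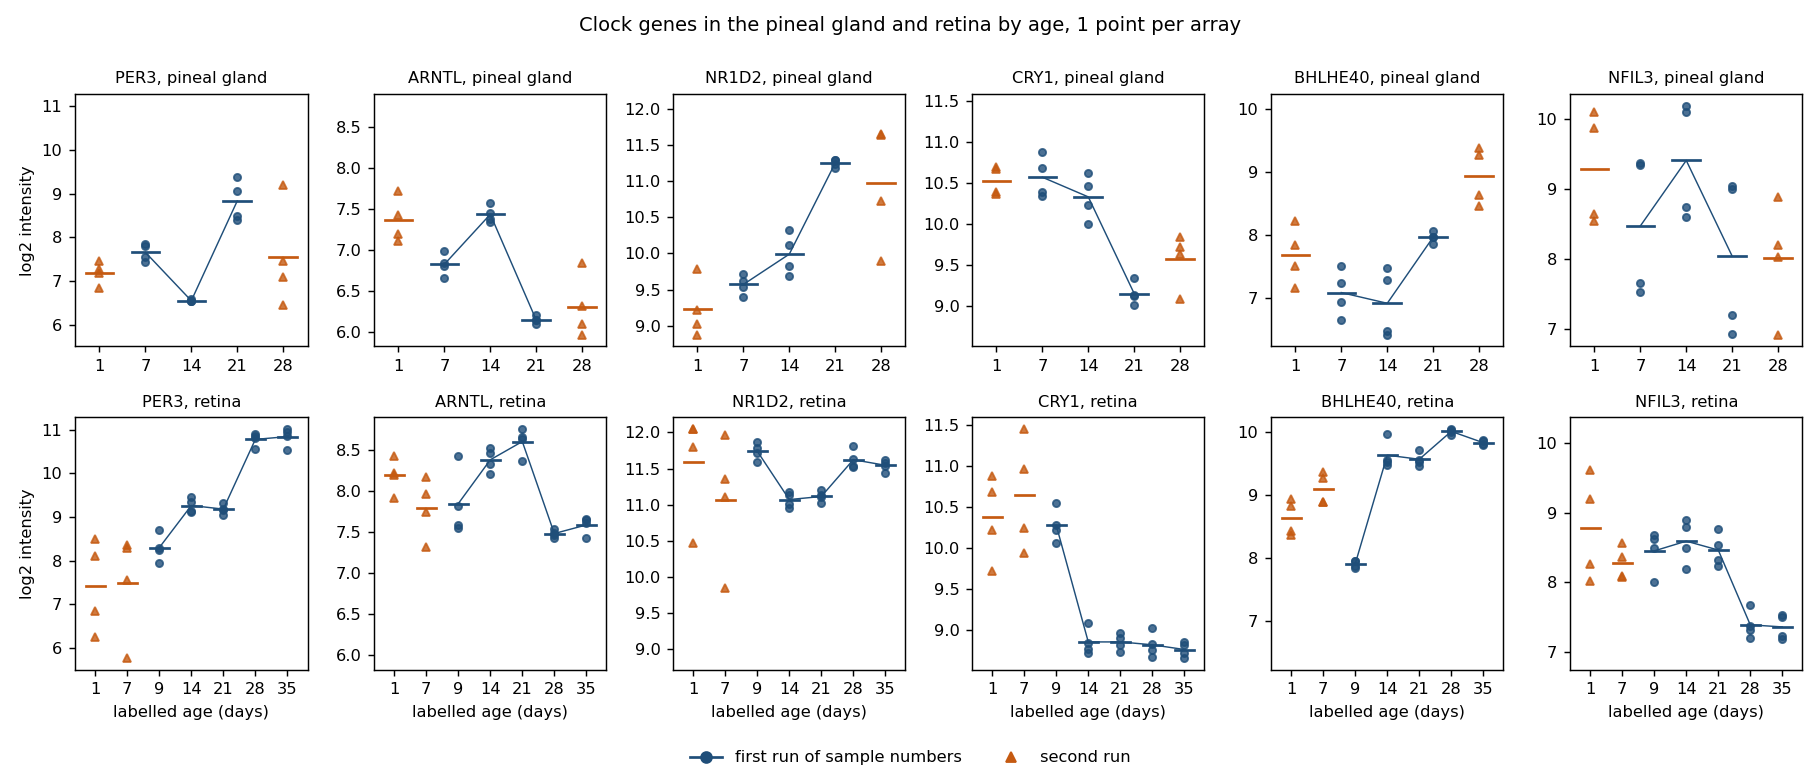
log2 intensity of 6 clock genes (columns) in the pineal gland (top) and retina (bottom) by labelled age, 1 point per array with group means as bars; blue circles are the first run of sample numbers, joined by a line, and orange triangles the second. In the pineal gland PER3 has its lowest group at day 14 (6.54) and ARNTL at day 21 (6.14), and in the retina PER3 steps up at day 28 (10.78) as ARNTL steps down (7.48).

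In the retina PER3 was higher at day 28 than at day 21, and ARNTL and NFIL3 were lower, where 10 of 9913 genes were called (0.101%). This step was taken up after its values were seen. PER3 read 10.80, 10.85, 10.91 and 10.55 at day 28, against 9.32, 9.05, 9.17 and 9.18 at day 21. ARNTL read 7.43, 7.54, 7.49 and 7.47 at day 28, against 8.66, 8.63, 8.76 and 8.37 at day 21. NFIL3 read 7.37, 7.31, 7.20 and 7.68 at day 28, against 8.23, 8.32, 8.53 and 8.77 at day 21.

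No gene of these 3 had overlapping groups. The differences were 1.60 ± 0.10 for PER3 (adjusted p = 1.44e-04), −1.12 ± 0.09 for ARNTL (8.41e-04) and −1.07 ± 0.14 for NFIL3 (0.00985), all from limma. The NFIL3 call was lost without replicate 1, 2 or 3 (adjusted p 0.0647, 0.156 and 0.147). NR1D2 was 0.51 higher and BHLHE40 0.44 higher at day 28, with limma adjusted p of 0.0458 and 0.0556, both under the required size. The cone opsin OPN1LW was also among the 10 genes, with 9.28 at day 28 and 10.83 at day 21, and its part in the result was not tested.

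At the next step PER3 was at 10.84 ± 0.21 at day 35 and 10.78 ± 0.16 at day 28, ARNTL at 7.59 ± 0.11 and 7.48 ± 0.05, and NFIL3 at 7.36 ± 0.18 and 7.39 ± 0.21 (SD, n = 4 each). No member was called there, nor between days 21 and 14, where 0.0101% and 0.0603% of genes passed.

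The retinal step between days 14 and 9 was a large one, with 34.9% of genes called. CRY1 fell to 8.72, 9.08, 8.84 and 8.76 at day 14, against 10.21, 10.28, 10.06 and 10.54 at day 9, and NPAS2 differed by −1.04 ± 0.10. BHLHE40 read 9.53, 9.97, 9.47 and 9.56 at day 14, against 7.96, 7.96, 7.87 and 7.85 at day 9, but its mean over all probe sets differed by 0.01. PER3 was higher by 0.97 (limma adjusted p = 6.37e-05), just under the required size. OPN1LW was at 10.77 at day 14 and 13.35 at day 9 and PDE6H, a cone phosphodiesterase subunit, at 9.79 and 11.91. The part of this shift of photoreceptor genes in the clock gene values was not tested.

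Whether a tissue's step differed from that of others at the same ages was tested directly, in contrasts chosen after the steps were seen. They reuse the arrays of those steps and so give no independent support for them. Between days 21 and 14 the pineal change differed from the retinal change in 5 members, where 67 of 11194 genes were called (0.599%). These were PER3 (2.29 in pineal gland and −0.08 in retina), ARNTL (−1.29 and 0.22), CRY1 (−1.18 and 0.00), NR1D2 (1.26 and 0.04) and BHLHE40 (1.05 and −0.07, limma adjusted p = 0.028). Against the mean change of abdominal fat, duodenum, jejunum and lung, the pineal change differed for PER3, ARNTL and NR1D2 (0.349% of genes called). The retinal change between days 28 and 21 differed from the mean of duodenum, jejunum, lung and spleen for PER3 (1.60 and 0.14) and ARNTL (−1.12 and 0.21), with 0.155% of genes called. NFIL3 did not pass there (limma adjusted p = 0.178).

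The other probe sets of PER3 and NR1D2 had the sign of the main one, and those of ARNTL, CRY1 and BHLHE40 included some near 0. In the pineal step the 3 other PER3 probe sets differed by 1.07, 1.01 and 0.52, and the 4 other NR1D2 probe sets by 1.13, 1.46, 1.24 and 0.89. The 3 other ARNTL probe sets differed by −0.70, −0.01 and −1.23 in the pineal gland and by −0.69, −0.07 and −1.25 in the retina. For CRY1 they gave −1.38 and −0.003, and for BHLHE40 0.04, 0.16 and 0.30. When a gene's probe sets were averaged PER3 (1.22) and NR1D2 (1.20) stayed called in the pineal step, and ARNTL (−0.81), CRY1 (−0.85) and BHLHE40 (0.39) no longer reached a difference of 1. In the retinal step the averages of PER3 (0.95) and ARNTL (−0.78) did not reach it either.

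Over all called steps BHLHE40 had the lowest share of same signs on its other probe sets. Of 45 differences on them, 24 had the sign of the main probe set, and 0 also reached 50% of its size. ARNTL had 15 of 15 such signs and PER3 18 of 18, but only 6 and 2 of these reached 50% of the main size. NR1D2 had 32 of 40 such signs (20 past 50% of the size), CRY2 14 of 18 (10 past it) and CRY1 8 of 12 (1 past it). Calls of BHLHE40 thus describe its main probe set. Calls of CRY1 mostly do so too.

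Among other steps, abdominal fat had 4 clock genes lower at day 42 than at day 35, with 29.3% of genes called. CRY2 read 8.50, 8.40, 7.72 and 8.70 at day 42, against 10.52, 9.51, 9.45 and 10.76 at day 35. BHLHE40 read 5.99, 7.00, 6.80 and 8.24 at day 42, against 8.60, 8.36, 8.58 and 8.45 at day 35. Neither overlaps, with differences of −1.73 ± 0.40 and −1.49 ± 0.42, and ARNTL (−1.05 ± 0.38, with overlapping groups) and NFIL3 (−1.22 ± 0.40) were lower too.

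These 4 fat calls depended on the scaling of the arrays. Under quantile normalization the differences were −0.74 for CRY2, −0.87 for BHLHE40, −0.72 for ARNTL and −0.26 for NFIL3, none of which passed. PLIN1, which coats fat droplets, was at 11.06 at day 42 and 9.32 at day 35. The calls of ARNTL, BHLHE40 and NFIL3 were also lost without single replicates, with limma adjusted p up to 0.208, 0.0971 and 0.221. With replicate number as a block ARNTL had a limma adjusted p of 0.0524. The earlier fat steps rest on groups that stand apart: CRY2 was higher at day 28 than at day 7 (1.71) and at day 14 than at day 10 (1.92), with 22.6% and 28.1% of genes called.

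In jejunum CRY2 and CLOCK were higher at the later age in both runs. Between days 28 and 21 CRY2 read 8.08, 8.02, 8.42 and 8.46 at day 28, against 6.93, 6.77, 6.89 and 6.88 at day 21, a difference of 1.38 ± 0.12 with 7.76% of genes called. CLOCK was higher by 1.13 ± 0.21 (0.98 without replicate 3) and PER2 by 1.08 ± 0.33 in that step. Between days 35 and 7 of the second run CRY2 read 9.42, 9.06, 8.78 and 8.86 at day 35, against 7.82, 6.95, 7.27 and 6.62 at day 7, with 12.7% of genes called.

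ARNTL had its largest step of all in this last pair. It read 7.82, 7.78, 7.05 and 7.82 at day 35, against 6.11, 4.23, 6.04 and 5.62 at day 7, and the difference was 2.12 ± 0.42 (limma adjusted p = 0.00156). The day 7 mean (5.50) lies below every array's median. Averaged over its probe sets the difference was 0.75. The CLOCK call between days 35 and 7 (1.48 ± 0.48) rested on an array at 6.93 among the day 7 arrays, was lost without replicate 1, 3 or 4, and was 0.72 without the last. The PER2 call between days 28 and 21 was lost without replicate 1, 2 or 4 (limma adjusted p 0.101, 0.0643 and 0.0868). RBP2, an enterocyte protein, was at 10.29 at day 35 and 13.32 at day 7, and its part was not tested.

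In duodenum NR1D2, PER3 and NPAS2 were higher at day 42 than at day 1, by 1.62 ± 0.37, 1.37 ± 0.36 and 1.22 ± 0.35, with 17% of genes called. The PER3 call was lost without replicate 2 (limma adjusted p = 0.0627), and the NPAS2 call without replicate 1, 2 or 3. CRY1 was lower at day 14 than at day 7 (−1.54 ± 0.32), with 18.4% of genes called. The NR1D2 call of that step (1.67 ± 0.51) rested on overlapping groups and was lost without replicate 1, 2 or 4 (limma adjusted p 0.116, 0.144 and 0.157). HINTW, a gene of the female W chromosome, averaged 11.07 and 10.85 in labelled males and females at day 1. At day 42 it averaged 6.26 and 6.51, at day 7 9.795 and 10.73, and at day 14 6.365 and 6.325. Both duodenal steps thus also cross a shift in HINTW, whose part was not tested.

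In liver BHLHE40 was called at 4 steps. It averaged 7.97, 5.80, 5.54, 7.03, 5.57 and 7.48 at days 0, 1, 3, 7, 9 and 49, and its arrays did not overlap in any of the called steps. BHLHE41 averaged 6.70, 6.68, 11.37, 8.80, 11.64 and 8.78 at the same ages, and at day 7 its arrays split into 10.57 and 9.97 against 7.41 and 7.24. The step in BHLHE41 between days 3 and 1, 4.69, was the largest of the other clock genes outside the groups that stand apart. The BHLHE40 differences were −2.17 (day 1 minus day 0), 1.49 (day 7 minus day 3), −1.47 (day 9 minus day 7) and 1.91 (day 49 minus day 9), with 5.09%, 11.9%, 12.1% and 12.2% of genes called. The means at days 1, 3 and 9 lie below every array's median (5.99 or more) and the 25th percentile of all values (5.96), so the sizes of these 4 differences rest on dim signals. Averaged over the probe sets of BHLHE40 none of these 4 reached a size of 1. HINTW, a gene of the female W chromosome, averaged at least 10.23 in either labelled sex at days 0 and 7. At days 1, 3, 9 and 49 it averaged at most 6.175. The BHLHE40 steps between days 0 and 1, 3 and 7, and 7 and 9 thus also cross a shift in HINTW. The part of this shift was not tested. PER3 was higher at day 3 than at day 1 in liver by 1.01 ± 0.19, and by 0.76 without replicate 3, with 2.62% of genes called.

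**Figure D4:**
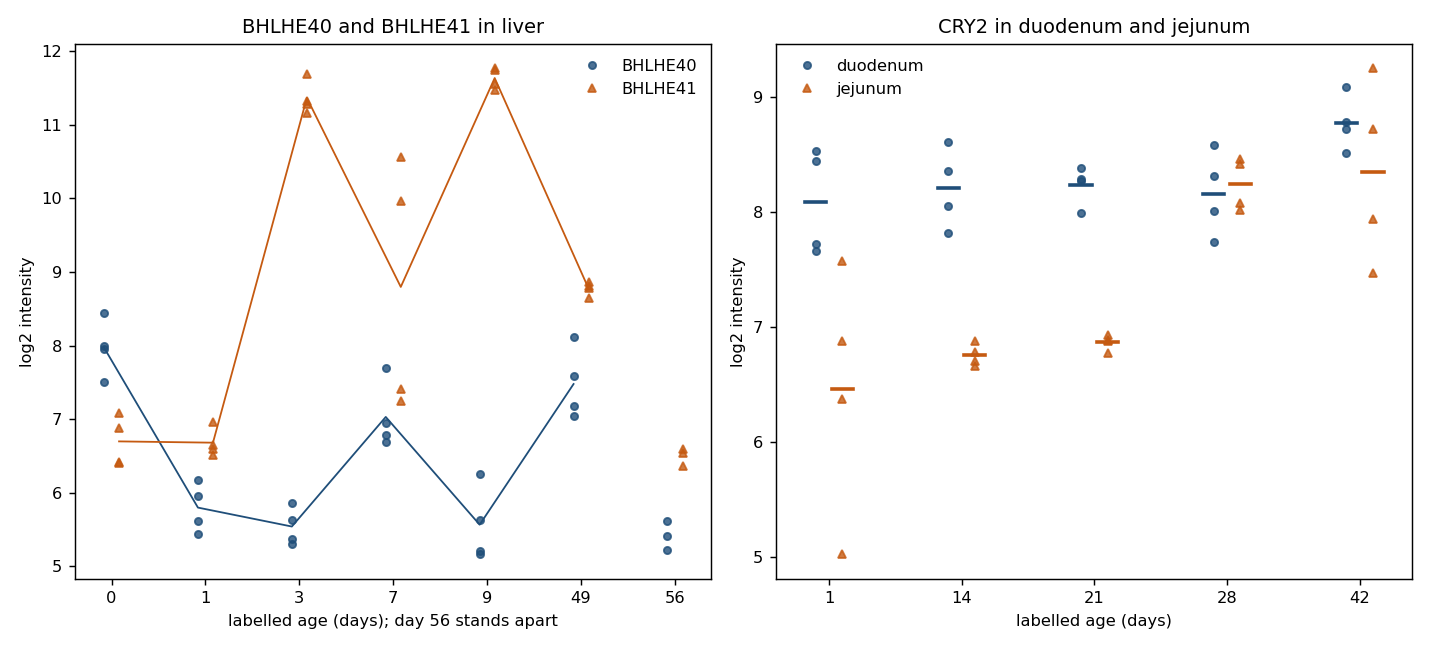
Left, log2 intensity of BHLHE40 (blue circles) and BHLHE41 (orange triangles) in liver by labelled age, 1 point per array, with lines through the means of groups that do not stand apart; right, CRY2 in duodenum (blue circles) and jejunum (orange triangles) at shared ages, with bars for means. BHLHE41 averages 11.37 and 11.64 at days 3 and 9, where BHLHE40 averages 5.54 and 5.57, and every duodenal array of days 14 and 21 lies above every jejunal array of those ages for CRY2.

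Single calls elsewhere were few. NFIL3 fell in pectoralis muscle to 8.13, 7.53, 8.03 and 8.39 at day 7, against 9.40, 9.75, 9.43 and 9.95 at day 0, a difference of −1.61 ± 0.31 with 8.54% of genes called. In growth plate CRY1 and NR1D2 were higher at day 28 than at day 14, by 1.22 ± 0.33 and 1.27 ± 0.34 (6.62% of genes called), and each call was lost on leaving out any of 3 replicates. HINTW averaged 11.52 and 11.51 in labelled males and females of growth plate at day 14, and 5.555 and 8.505 at day 28. Its part in that step was not tested. BHLHE40 was higher by 1.16 ± 0.15 in whole intestine at day 1 than at day 0 (0.838% of genes called). In abdominal fat it was at 6.31 ± 0.11 at day 49 and 7.41 ± 0.51 at day 21 (26.5%).

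Other steps with many clock genes called hold groups that stand apart. Brain at day 21 read 6.91 ± 0.19 for CLOCK (SD, n = 6), against 9.26 ± 0.41 at day 9 (SD, n = 4), and 6.86 ± 0.18 against 10.72 ± 0.37 for NR1D2. At day 28 brain was again at 9.73 ± 0.26 and 10.35 ± 0.20. Brain called 29% of all genes in the first of these steps and 25.6% in the second. Between days 49 and 14 of the second run 5 members were called with 27% of all genes, CLOCK by 3.00 ± 0.37 and BHLHE40 by 3.37 ± 0.39.

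Pectoralis at day 21 had CRY1 at 6.02 ± 0.25, against 9.91 ± 0.54 at day 7 (SD, n = 4 each), with 42.2% of genes called. Liver at day 56 had CRY1 at 4.97 ± 0.22 (SD, n = 3), against 8.40 ± 0.64 at day 49 (SD, n = 4), with 51.2% of genes called. In these groups markers of the tissue were low as given above, other than ACTA1 in pectoralis. GAPDH, probed at both ends of its transcript as a sign of RNA quality, read 4.50 higher at the 3-prime than at the 5-prime end in pectoralis at day 21 and 0.08 at day 7. It read 3.94 higher in the group whose labels give 2 ages, and between −0.87 and 2.34 in the 99 other groups. In liver at day 56 the 3-prime GAPDH probe set was at 6.39, against 12.09 to 15.01 in all 100 other groups. The part of markers and RNA quality in the clock gene values was not tested.

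**Figure D5:**
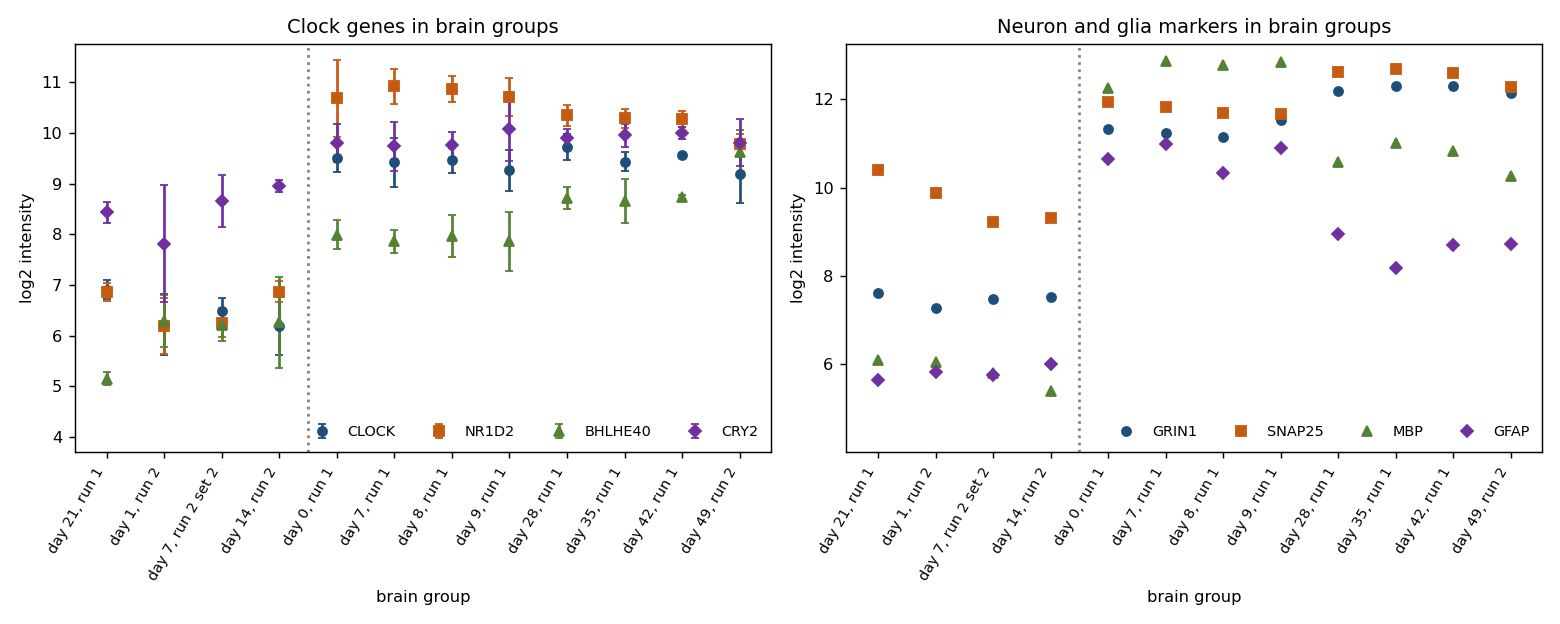
Brain groups, with the 4 that stand apart left of the dotted line: left, mean log2 intensity of 4 clock genes with the SD between arrays as error bars; right, mean log2 intensity of neuron and glia markers. CLOCK lies between 6.19 and 6.91 in the 4 groups and above 9.1 in the 8 others, and GRIN1 is below 7.7 in the 4 and above 11.1 in the others.

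Neighbouring tissues of the same age and run were compared in 22 pairs. Clock genes were called in 55 of 216 tests (25.5%), 37 higher and 18 lower in the first tissue, against 23.8% of tests over all genes (12.9% higher and 10.9% lower). Without groups that stand apart or match others 36 of 179 were called (20.1%), 18 higher and 18 lower, against 23.9% (13.1% higher and 10.8% lower). The share of clock genes was thus near that of all genes. NR1D2 gave 9 of the 36 calls, and BHLHE40 and CRY2 6 each.

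Retina was above brain for PER3 by 3.55 ± 0.15 at day 28 (10.78 ± 0.16 in retina and 7.23 ± 0.27 in brain, SD, n = 4 each) and by 3.75 ± 0.17 at day 35. At day 9 the difference was 1.01 ± 0.21. All genes were called in 20.9%, 37.6% and 38.1% of tests at days 9, 28 and 35. NR1D2 was higher in retina by 1.02, 1.27 and 1.25 at days 9, 28 and 35. NPAS2 was lower in retina, with differences of −1.02 ± 0.15 at day 28 and −1.08 ± 0.11 at day 35, but at day 9 it was at 7.36 in retina and 7.11 in brain (limma adjusted p = 0.269). At day 1 and in the second set of day 7 brain stands apart. There CLOCK differed by 3.64 and 3.10 and NR1D2 by 5.41 and 4.82, with 30.4% and 30.8% of genes called.

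The pineal gland was below retina for CRY2 at all 3 shared ages, with differences of −1.30 ± 0.35 at day 1, −1.56 ± 0.13 at day 14 and −1.08 ± 0.08 at day 21 (23.3%, 42.2% and 41.5% of genes called). PER3 differed by −2.72 ± 0.09 at day 14 (6.54 ± 0.02 in pineal gland and 9.26 ± 0.17 in retina, SD, n = 4 each), and at day 21 it was at 8.83 ± 0.48 in pineal gland and 9.18 ± 0.11 in retina. ARNTL differed by −2.46 ± 0.09 at day 21 (6.14 ± 0.05 in pineal gland and 8.61 ± 0.17 in retina). Against the first set of brain at day 7, pineal gland had more CRY1 (2.08 ± 0.27) and PER3 (1.12 ± 0.32) and less NR1D2 (−1.36 ± 0.20), with 25.2% of genes called. In the second set, which stands apart, CRY1 was at 10.05 and PER3 at 5.68, against 8.50 and 6.53 in the first. Cerebral cortex was below the first set of brain for NR1D2 at day 7 (−1.13 ± 0.23, 10.3%).

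CRY2 was higher in duodenum than in jejunum at days 1, 14 and 21, by 1.63 ± 0.45, 1.46 ± 0.17 and 1.37 ± 0.10 (22.9%, 28.8% and 27.2% of genes called). At day 28, after the jejunal step described above, it was at 8.16 in duodenum and 8.25 in jejunum, and NPAS2 and CRY1 were lower in duodenum (−1.32 and −1.69, 26.1%). Between ileum and jejunum at day 28 limma called 0 of 10007 genes (0%), with 896 at an unadjusted p under 0.05. There NPAS2 was at 8.14 in ileum and 7.645 in jejunum, and PER2 at 8.00 and 7.94. At day 42 BHLHE40 was lower in duodenum (−1.37, 20.4%), and at day 14 cecal epithelia were below duodenum for NR1D2 (−1.20, 16.4%). The CRY2 call between duodenum and jejunum at day 1 was lost without replicate 3 (limma adjusted p = 0.0684). GAPDH at the 3-prime minus the 5-prime end was 0.645, 0.7625 and 0.54 in duodenum at days 14, 21 and 28. In jejunum it was 2.16, 2.0325 and 2.3425. At day 1 HINTW averaged 11.07 and 10.85 in labelled males and females in duodenum, against 5.605 and 6.16 in jejunum. The part of RNA quality and HINTW in these pairs was not tested. In testes at week 17 BHLHE40 was lower than in ovary (−1.99 ± 0.34) and NFIL3 was higher by 1.32 ± 0.37, with 32.6% of genes called. The labels give male as the sex of all ovary arrays at week 17 and of some oocyte arrays. Over the 2 ovary groups the ovary marker ZP3 lay between 6.41 and 10.79, against a median of 5.83 in other tissues. FSHR, another ovary marker, lay between 7.74 and 7.83, against 5.56.

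Labelled sex was compared last. Over 95 somatic groups with both labelled sexes (384 arrays, gonads and oocytes left out, group as a fixed effect), labelled male minus labelled female differences of the 10 members lay between −0.08 and 0.06, and 0 had an unadjusted p under 0.05. Over all genes limma called 0 of 12953 (0%) after adjustment, with 1181 (9.12%) at an unadjusted p under 0.05. HINTW, a gene of the female W chromosome, was higher in labelled females in 41 of 95 groups. The sex labels were thus not borne out by it. In 51 of 95 groups its arrays lay within a range under 1, while group means ran from 5.36 to 13.21. In pineal gland at days 14 and 21 it averaged at most 5.655 in either labelled sex, and in retina at least 13.1. The pineal and retinal pairs of these ages thus also set HINTW-low against HINTW-high arrays. Its part in them was not tested. In the first set of brain at day 7 HINTW averaged 11 and 11.615 in labelled males and females, against 5.525 and 5.5 in pineal gland. In abdominal fat it averaged 12.355 and 11.435 at day 7, and 6.225 and 5.915 at day 28. In retina at day 9 HINTW averaged 13.38 and 6.07 in labelled males and females, against 13.185 and 13.175 at day 14. The part of HINTW in these comparisons was not tested either.

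The wider clock was counted as a list of 24 other clock and output genes, of which 15 were measured. Among the 15 are AANAT, KLF9 and FKBP5, counted as outputs of clock or hormone. In organ classes at day 7 the 15 genes were called in 52 of 150 tests (34.7%). The counts were 100 of 844 in age steps (11.8%) and 91 of 301 in tissue pairs (30.2%). Over all genes the shares were 20.1%, 7.27% and 23.8%. Without groups that stand apart or match others, 53 of 691 were called in steps (7.67%), against 4.39% over all genes. In pairs 63 of 245 were then called (25.7%), near the 23.9% over all genes. RORB, a nuclear receptor that acts on the same sites as NR1D2, was 3.69 higher in pineal gland than in the other organs, and AANAT, the melatonin enzyme, 3.36 higher. RORA was 2.81 higher in retina, and CSNK1E, a kinase of PER proteins, 2.77 higher in abdominal fat at day 7, a group that stands apart. In age steps the 4 largest were BHLHE41 in liver (above), HLF in brain between days 49 and 14, where day 14 stands apart, CSNK1E in jejunum between days 28 and 21 (4.13) and FKBP5 in pectoralis between days 7 and 0 (−3.63). In tissue pairs BHLHE41 and HLF led, with differences of retina minus brain of 5.22 and 4.54 at day 1, where brain stands apart.

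Genes were ranked by how like a member their group means moved with age, after removing each tissue's and run's mean. Over 77 groups that did not stand apart, ARNTL went most with GABPB1 (r = 0.68), PGAP1 (0.66) and ARGLU1 (0.65), and least with CDCP2 (−0.66), TINAGL1 (−0.63) and CTSE (−0.62). PER3 went most with KAT2B (0.57), HRAS (0.55) and CDHR2 (0.55), and least with MSX2 (−0.54), PLK1 (−0.52) and PTPDC1 (−0.51). NR1D2 went with RIPK4 (0.64), LIMA1 (0.63) and GABARAPL2 (0.63), and against ARHGAP6 (−0.68), MDK (−0.59) and ACTG2 (−0.58). PER2 went with CDCP1 (0.66), MYO7B (0.64) and SLK (0.60), and against RILPL2 (−0.64), LMBRD1 (−0.60) and STXBP3 (−0.58).

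Over all 90 groups most of these genes gave way to others, where NR1D2 went with TPPP (0.84), DLG1 (0.81) and CLOCK (0.80), and ARNTL with TANC1 (0.62), VPS13A (0.60) and ZNF292 (0.59). Over all groups PER2 was led by NEDD9 (0.55) and PER3 by PLA2G10L (0.57). MYO7B (0.54) for PER2 and PLK1 (−0.49) for PER3 were listed in both sets. Among the members themselves the highest correlation over the 77 groups was 0.60 for CRY2 with BHLHE40 and 0.59 for ARNTL with NFIL3, and the lowest was −0.44 for ARNTL with PER3. CLOCK and NR1D2 were at 0.80 over all 90 groups. Points share arrays, runs and processing, and these values are descriptions.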

How the data were processed

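The deposited values are log2 intensities per probe set of the Affymetrix Chicken Genome array, computed by the authors with Affymetrix Expression Console 1.1, per the submitters' processing notes. Background correction and normalization are not given in the sources used here. Array medians lay between 5.99 and 6.47, and the values were not normalized again. Probe sets were named through the platform annotation, which gives 1 symbol to 27168, several to 177 and none to 11094. All 10 clock genes matched RefSeq's gene table.

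Differences were fitted with limma 3.58.1 (lmFit and eBayes) in R 4.3.3 on all genes of the groups compared, with Benjamini-Hochberg adjustment. Genes were kept when 1 group mean reached the 25th percentile of the values fitted. Age steps were taken within a run of sample numbers. The fits were tested on simulated data with normal values and the same SD in both groups, changing only genes that were not dim. Of genes changed by a log2 size of 1.5 and 2, 99% and 100% were recovered in the pineal step between days 21 and 14. In the jejunal step between days 35 and 7, 29.6% and 70.4% were recovered. Apart from PER3, the clock genes called in the pineal step differed by less than 1.5, and such sizes were not simulated. Named are the 10 members, the 8 steps with most members called and, per family, 4 other clock and output genes by largest call. Also named are the 3 genes most and least like ARNTL, PER2, PER3 and NR1D2. Steps beyond these 8 are described because members were called in them. The rule for the members uses no value, but members and lists were chosen with earlier results of these data known. In age steps replicate numbers were not found to pair arrays: in 0 of 65 steps did every pair's correlation exceed 0.1. This check does not cover tissue pairs of the same age. Precision is limited by the number of arrays.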

Additional observations from a re-analysis of the deposited data

Results flagged for a closer look

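Age steps that differed between tissues drew attention, each by a direct limma test of the difference, and these contrasts were chosen after the steps had been seen. Between days 21 and 14 the pineal change minus the retinal change was 2.37 for PER3, −1.51 for ARNTL, 1.22 for NR1D2, −1.18 for CRY1 and 1.12 for BHLHE40. The BHLHE40 change in the pineal gland itself was lost on leaving out any of 3 replicates. Against the mean change of abdominal fat, duodenum, jejunum and lung, the pineal difference was 2.42 for PER3, −1.23 for ARNTL and 1.45 for NR1D2. Between days 28 and 21 the retinal change differed from the mean of duodenum, jejunum, lung and spleen by 1.46 for PER3 and −1.33 for ARNTL. In all, 10 of 30 such differences passed, where 0.599%, 0.349% and 0.155% of all genes passed in these contrasts, in the order given. The contrasts were picked from steps in which members had been called, so this count is not a rate. The contrasts with retina and with the mean of 4 tissues share the pineal arrays, and age and time of day cannot be told apart in any of them.

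Single arrays far from the rest of their group were looked for in 22 sets of gene and group, and 0 were found. Chance gives about 1 in 20, and with few arrays per group such a search can miss an outlier. Finding 0 thus does not show that there are none.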

How the results depend on the processing

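With each gene's probe sets averaged there were 6 clock gene calls at day 7 between organs (21 otherwise), 25 in age steps (65) and 36 in tissue pairs (55), of which 6, 24 and 27 were calls of the single probe sets. Over all genes there were 17243 (25588), 32142 (49186) and 39465 (56351), of which 16486, 29260 and 35676 were. Without groups that stand apart or match others (an alternative added after the data were seen) 37 clock gene calls and 24023 of all genes remained in steps, and 36 and 46400 in pairs. Leaving out 1 replicate gave 20 to 24, 55 to 60 and 50 to 55 clock gene calls in organs, steps and pairs, against 26134 to 26397, 41544 to 44822 and 50430 to 52396 over all genes. For labelled sex it gave 0 to 96 calls over all genes, the 96 without replicate 2, and the first run alone gave 8.

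With replicate number as a block there were 21, 64 and 55 clock gene calls in organs, steps and pairs (25588, 50027 and 56795 over all genes), and 0 for sex. In age steps the pairing of arrays by number was not borne out. ARNTL in fat (above) was 1 of 2 calls that the block ended.

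Calls that reversed were those of brain at day 7 with its second set (CRY2 −0.034, NPAS2 −0.80, NR1D2 −3.12), where neuronal markers were low. Averaged over probe sets BHLHE40 reversed in fat between days 49 and 21 (0.18), pectoralis between days 21 and 7 (0.20), pineal gland minus retina at day 21 (0.14) and retina minus brain at days 28 and 35 (−0.19 and −0.15). The cause was not tested. Of 141 single calls, 57 held with probe sets averaged (79 no longer passed and 5 reversed), 116 under quantile normalization and 125 under median centring. Signal over background limits PER2 and NPAS2, whose means (6.43 and 6.49) are near the array medians, and the dim groups of ARNTL, PER3 and BHLHE40 named above.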
